A study of Mus musculus with 14 samples.

Results

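Regulatory T cells hold other immune cells in check with a small set of molecules, and 9 of their genes are described here, chosen by symbol from a table of 14449 genes: Il10, Ebi3, Entpd1, Nt5e, Nrp1, Fgl2, Gzmb, Prf1 and Lgals1. All 9 were in the table and all 9 passed the filter on low values. Their transcripts were measured by low-input Smart-Seq2 RNA sequencing of CD4+Foxp3eGFP+ cells, regulatory T cells sorted by a green fluorescent reporter of Foxp3, from lymph nodes of BALB/c mice on postnatal day 35. Both genotypes shared that strain, age, tissue and reporter. They were Il1rn-/- (7 libraries), which lack the IL-1 receptor antagonist and so a brake on IL-1 signalling, and wild type (7 libraries). The sample titles split the libraries into a set a, with 3 Il1rn-/- and 3 wild-type libraries, and a set b, with 4 Il1rn-/- and 4 wild-type libraries, and the labels do not say what the letters stand for. The study asked whether these cells differ between arthritis-prone Il1rn-/- and wild-type mice.

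The molecules act in different ways. Il10 encodes interleukin-10, a cytokine that restrains antigen-presenting cells and effector T cells. Ebi3 encodes a chain that pairs with IL-12p35 to form interleukin-35 and with p28 to form interleukin-27. Entpd1 encodes CD39 and Nt5e encodes CD73, cell-surface enzymes that act in sequence: CD39 takes extracellular ATP and ADP to AMP, and CD73 takes AMP to adenosine, which quiets T cells through an adenosine receptor. Nrp1 encodes neuropilin-1, a semaphorin and VEGF co-receptor that in mice is high on thymus-derived regulatory T cells. Fgl2 encodes fibrinogen-like protein 2, secreted and bound by an inhibitory Fc receptor. Prf1 encodes perforin, which opens target membranes, and Gzmb encodes granzyme B, a protease that enters through perforin and starts cell death. Lgals1 encodes galectin-1, a lectin that binds glycans on activated T cells.

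The control regions of the granule pair, Gzmb and Prf1, are shown because both genes are later set beside each other across libraries. The windows are 240 bases long, run from position -250 to -11 relative to the RefSeq start site in build GRCm38.p6, read 5′ to 3′ along the gene, and lie at chr14:56262345-56262584 (minus strand, Gzmb) and chr10:61297586-61297825 (plus strand, Prf1). Capitals mark matches on either strand to AP-1 (TGANTCA), RUNX (TGTGGT), a CRE core (TGACG), a GC box (GGGCGG) and ETS (AGGAAG). Also searched were an NFAT core (GGAAA), forkhead (TGTTTAC), STAT (TTCNNNGAA) and a HIF core (ACGTG), with 0 matches in either window.
Gzmb: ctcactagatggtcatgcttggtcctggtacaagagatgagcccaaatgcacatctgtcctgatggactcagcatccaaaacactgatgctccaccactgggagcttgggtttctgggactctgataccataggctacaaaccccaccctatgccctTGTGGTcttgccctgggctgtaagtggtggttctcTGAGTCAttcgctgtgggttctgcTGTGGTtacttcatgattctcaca
Prf1: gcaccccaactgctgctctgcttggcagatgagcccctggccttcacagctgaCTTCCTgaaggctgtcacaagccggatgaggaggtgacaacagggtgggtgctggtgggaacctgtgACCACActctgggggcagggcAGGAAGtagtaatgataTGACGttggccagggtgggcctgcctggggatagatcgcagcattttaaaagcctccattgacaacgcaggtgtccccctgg
The Gzmb window held an AP-1 match at -58 to -52 and RUNX matches at -93 to -88 and -34 to -29. The Prf1 window held a RUNX match on the minus strand at -130 to -125, a CRE core at -92 to -88, and ETS matches at -197 to -192 (minus strand) and -109 to -104. No marked matches overlapped each other. Of 32851 RefSeq promoter windows of that length, 6.58% held the AP-1 letters, 13.6% the RUNX letters, 16.9% the CRE core, 31.3% the GC box and 28.4% the ETS letters, so such matches are common and only describe the windows. Promoter windows were matched for 7 of the 9 genes.

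In build GRCm38 (GENCODE M21) the genes lie on 9 different chromosomes. Il10 is at chr1:131019845-131024974, Ebi3 at chr17:55952640-55957022, Entpd1 at chr19:40612366-40741602, Nt5e at chr9:88327197-88372092, Nrp1 at chr8:128358604-128503363, Fgl2 at chr5:21372642-21378374, Gzmb at chr14:56258838-56262260, Prf1 at chr10:61297833-61304680 and Lgals1 at chr15:78926725-78930465. Gzmb is on the minus strand and the other 8 are on the plus strand. An antisense gene, Gm16712, overlaps Ebi3 and holds 18.9% of the 32-base stretches of its transcript, and the sources used here do not state whether counting used strand, so reads from that stretch cannot be assigned to 1 of the genes. Fgl2 lies within the span of Ccdc146 on the opposite strand, and its transcript shares 0 of its 32-base stretches with another gene. Gzmb shares 1.28% of its 32-base stretches with its paralog Gzmc, and how shared reads were assigned is not given either.

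Values below are log2 CPM as deposited, read counts normalised to library size (CPM), where the library size carries a scaling factor. Within a group they are listed by library number. Depth was 952021 to 3756559 reads per library. The libraries fell into 2 kinds by the share of reads on the ribosomal RNA precursor Rn45s. A deep kind of 8 libraries had 20.3% to 39.95% on Rn45s and 1654868 to 2805693 reads outside it. A shallow kind of 6 had 59.6% to 65.8% on Rn45s and 384360 to 905988 reads outside it. The shallow libraries were Il1rn-/- 1-b and 2-b and all 4 wild-type libraries of set b, so within set b depth and genotype went together. Y-linked transcripts were present in 4 of the deep libraries, Il1rn-/- 3-b and 4-b and wild-type 1-a and 2-a, and within each set they marked 1 genotype only. Il1rn is not in the table, so the genotype could not be checked by it, and nothing in the labels says that libraries came from separate animals, so p-values measure the spread between libraries, which may be technical. All 13 markers of regulatory T cell identity, Foxp3 among them, had reads in every library and summed to 3461 to 5448 CPM. Of these 13, 7 were higher and 1 lower in set b than in set a by limma, among them Cd3e (2.03 ± 0.33, log2 estimate ± SE), where 19.5% of all tested genes passed.

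Per length of exon, galectin-1 mRNA was by far the most abundant of the 9. Lgals1 had a median of 117.7 CPM per kb in Il1rn-/- libraries and 149.2 in wild-type libraries, and lay above each other member in 14 of 14 libraries. By this length the next 4 were close: medians over all libraries were 12.8 CPM per kb for Nrp1, 12.3 for Gzmb, 10.5 for Ebi3 and 9.65 for Nt5e, and Nrp1 exceeded Gzmb in only 7 of 14 libraries. Entpd1 followed with 7.64, Fgl2 with 5.94, Prf1 with 5.39 and Il10 with 1.85 CPM per kb. Below Lgals1 neighbours in this order changed places between libraries, since each exceeded the next in 7 to 12 of 14 libraries. With the longest transcript in place of the union of exons, Nrp1 stood clear of those after it, at a median of 34.5 CPM per kb against 20.8 for Nt5e at rank 3, and above Nt5e in 14 of 14 libraries. Gzmb was then at rank 4 and Ebi3 at rank 5.

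**Figure D1:**
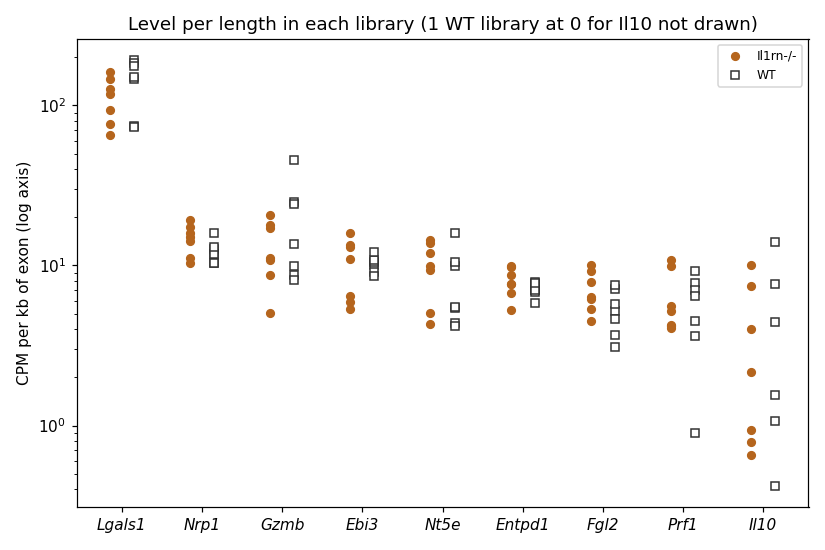
Level of each gene in each library, in CPM per kb of union exon length on a log axis, with Il1rn-/- libraries as filled circles left of wild-type libraries as open squares. Lgals1 stands above the other 8 genes in all 14 libraries, and Il10 spans the widest range, with 1 wild-type library at 0 reads not drawn.

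None of the 9 genes passed the test between genotypes. By limma over 12329 genes, adjusted by Benjamini-Hochberg at 0.05, 0 of 9 passed with both sets together, where 0% of all tested genes did. Also 0 of the 9 had an unadjusted p under 0.05, against 679 of all tested genes, and limma voom on recovered reads called 0 genes, with 733 at an unadjusted p under 0.05. 6 genes had a positive log2 difference, Il1rn-/- minus wild type, and 3 a negative one; the median over the 9 was 0.25, beside 0.04 over all tested genes. With the library kind in place of the set letter as covariate the median over the 9 was -0.03, beside 0.03 over all tested genes. Within set a 0 of the genes passed (0% of all tested genes), within set b 0 passed (0%), and 0 passed in the difference between the sets' genotype effects (0%). No gene of the 9 had Il1rn-/- and wild-type libraries that did not overlap: over all libraries such a gap was found in 0.0324% of tested genes, in set a in 7.97% and in set b in 4.28%.

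**Figure D2:**
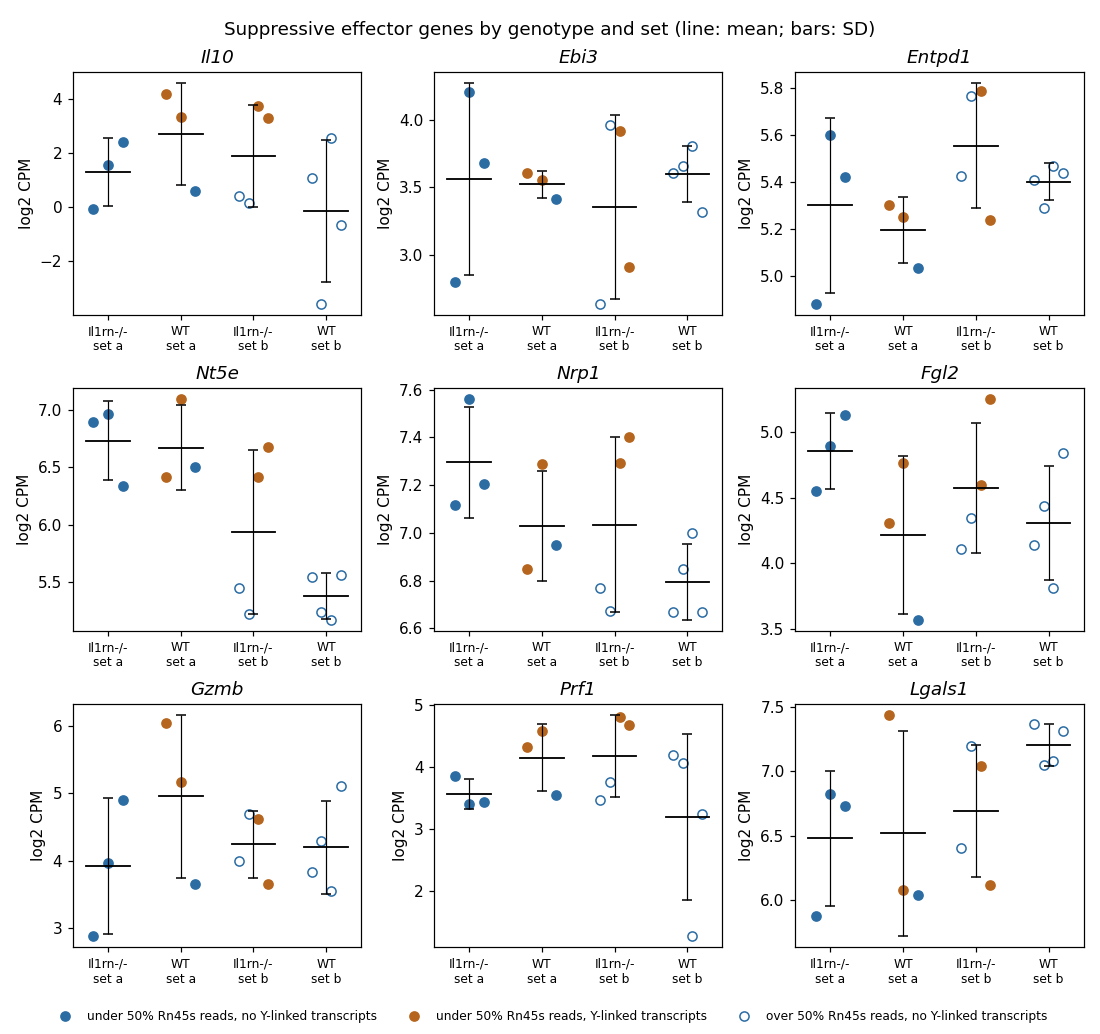
Log2 CPM of each gene in every library, by set, with Il1rn-/- left of wild type; lines are means and bars are SD (n = 3 each in set a, 4 each in set b). The genotypes overlap in every panel, and in the Nt5e panel the 6 open points, the shallow libraries, lie below all filled ones.

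Il10, the first of the cytokine genes, was the weakest of the 9 and the most variable, with an SD within the 4 groups of 2.05 log2 units. In set a it was at -0.09, 1.54 and 2.42 log2 CPM in Il1rn-/- libraries 1-a to 3-a, from 4, 11 and 24 reads, and at 4.20, 3.34 and 0.58 in wild-type libraries 1-a to 3-a, from 65, 43 and 8 reads. In set b it was at 0.39, 0.16, 3.73 and 3.30 in Il1rn-/- libraries 1-b to 4-b, from 2, 2, 42 and 29 reads, and at 1.07, -3.58, 2.56 and -0.66 in wild-type libraries 1-b to 4-b, from 3, 0, 5 and 1 reads. The high libraries were 2 wild-type ones in set a and 2 Il1rn-/- ones in set b, and genotypes overlapped in both sets. The 0 reads in wild-type 2-b allow up to 2.09 CPM, a limit from 3 reads that covers counting error only, so low Il10 in shallow libraries was not resolved at this depth. The genotype difference was 0.56 ± 0.95 with both sets (limma log2 estimate ± SE here and below; adjusted p = 0.913), -1.41 ± 1.34 in set a and 2.05 ± 1.16 in set b. The sets' effects pointed opposite ways, but their difference of 3.46 ± 1.77 did not pass (limma adjusted p = 0.651). With the library kind as covariate the difference with both sets was -0.13, and without wild-type 2-b, the library with 0 reads, it was -0.18, both of the opposite sign.

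Ebi3, the cytokine chain, was steadier. Il1rn-/- libraries had 2.80, 4.21 and 3.68 log2 CPM in set a and 2.64, 3.96, 3.92 and 2.90 in set b. Wild-type libraries had 3.61, 3.55 and 3.41 in set a and 3.61, 3.66, 3.81 and 3.32 in set b. The wild-type libraries sat within the range of the Il1rn-/- libraries in both sets, and the means were 3.44 in Il1rn-/- and 3.57 in wild type. The difference was -0.12 ± 0.27 (adjusted p = 0.940, limma), and the antisense overlap named above applies to these reads.

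The genes around these cytokines showed the same absence of calls. Of 14 tested genes of IL-10 reception and control, 0 passed and 10 were positive, with a median log2 difference of 0.08; the smallest unadjusted p values were those of Tyk2 (0.45 ± 0.22), a kinase of the IL-10 receptor, Irf4 (-0.26 ± 0.17), a transcription factor of effector regulatory T cells, and Jak1 (0.17 ± 0.18), another receptor kinase. Of 10 genes listed for IL-35 and IL-27, 7 were in the table and 6 were tested, and all 6 differences were positive with 0 passing, a median of 0.24 beside 0.04 over all tested genes. Il27ra, a chain of the IL-27 receptor, differed by 0.26 ± 0.14, and Il12rb2, with 0 to 5 reads per library, by 1.45 ± 0.91. Under the library kind as covariate Il27ra was at 0.13 and Il12rb2 at 1.43. Il12a, which encodes the p35 partner of Ebi3 in IL-35, had 0 to 5 reads per library and fell below the filter.

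The ectoenzyme pair differed in how steady it was. Entpd1 had 4.88, 5.60 and 5.42 log2 CPM in Il1rn-/- libraries of set a and 5.30, 5.25 and 5.03 in wild-type ones. In set b it had 5.43, 5.77, 5.79 and 5.24 in Il1rn-/- libraries and 5.41, 5.29, 5.47 and 5.44 in wild-type ones. All 14 values lay within 1 log2 unit and the genotypes overlapped. Its SD within the 4 groups, 0.24, was the smallest of the 9 genes, and the genotype difference was 0.13 ± 0.15 (adjusted p = 0.861, limma).

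Nt5e, the step that yields adenosine, followed the kind of library. It had 6.90, 6.97 and 6.34 log2 CPM in Il1rn-/- libraries of set a and 6.41, 7.10 and 6.50 in wild-type ones. In set b it had 5.45, 5.22, 6.42 and 6.68 in Il1rn-/- libraries and 5.54, 5.24, 5.17 and 5.56 in wild-type ones. Its 8 deep libraries, including Il1rn-/- 3-b and 4-b, averaged 6.66 and its 6 shallow ones 5.36, with no overlap. It was the only one of the 9 genes with that gap, which 14.9% of tested genes showed. Between the sets it was the only one of the 9 to pass, as 19.5% of tested genes did (1046 higher and 1362 lower in set b): 5.66 in set b and 6.70 in set a on average, a difference of -1.04 ± 0.22 (limma adjusted p = 0.00416). With the library kind added as covariate that call was lost, with a difference of -0.16 ± 0.23 (limma adjusted p = 0.925, the highest over the alternatives, whose lowest was 5.59e-05). When total reads replaced the scaled library size, the median of all tested genes between the sets moved to -0.74 and Nt5e to -1.69, against -0.11 and -1.04 as deposited. Under that scaling, chosen after seeing the data, 6121 of 12329 tested genes passed by limma between the sets, 5747 of them lower in set b. Ebi3 (-0.71), Fgl2 (-0.74), Gzmb (-0.86) and Nrp1 (-0.90) also passed as lower, each within 0.2 log2 units of the median of -0.74.

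The genotype difference of Nt5e depended on the same split. With the set letter as covariate it was 0.35 ± 0.22 (adjusted p = 0.792, limma), which divided into 0.06 ± 0.32 for set a and 0.56 ± 0.28 for set b. Il1rn-/- 3-b and 4-b averaged 6.55, against 5.33 in Il1rn-/- 1-b and 2-b, a gap within 1 genotype of 1.21 log2 units. Under the library kind in place of the letter the genotype difference was -0.03 ± 0.15, and it was -0.01 over the deep libraries alone and -0.04 over the shallow ones alone. Depth, Rn45s share and whatever else separates the kinds move together here, and their part in the Nt5e values cannot be told apart.

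Around the enzymes, 12 of 16 listed genes of ATP release, adenosine formation, transport, breakdown and reception were in the table and tested, with 0 passing between genotypes, 7 positive and 5 negative (median 0.10). The smallest unadjusted p values were those of the nucleoside transporter Slc29a1 (0.24 ± 0.15) and the ATP-gated channels P2rx4 (0.43 ± 0.28) and P2rx7 (-0.26 ± 0.21). Signs differed between the sets for Slc29a1 (-0.14 in set a, 0.53 in set b) and P2rx7 (0.13 in set a, -0.56 in set b). The library kind as covariate gave 0.17 for Slc29a1, 0.41 for P2rx4 and -0.02 for P2rx7. Adora2a, the adenosine receptor gene best known on T cells, averaged 4.21 log2 CPM in Il1rn-/- and 4.22 in wild type. Between the sets 1 of the 12 passed, where 19.5% of all tested genes did: Panx1, a channel that releases ATP, at 1.23 ± 0.40 higher in set b (limma adjusted p = 0.0360).

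Nrp1, the surface receptor, had the second highest median per length over all libraries, close to Gzmb by union exon length. In wild type alone that order turned, with medians of 11.8 CPM per kb for Nrp1 and 13.6 for Gzmb. It had 7.12, 7.56 and 7.21 log2 CPM in Il1rn-/- libraries of set a and 6.85, 7.29 and 6.95 in wild-type ones. Set b had 6.77, 6.67, 7.29 and 7.40 in Il1rn-/- libraries and 6.67, 6.85, 6.998 and 6.67 in wild-type ones. All 3 Il1rn-/- libraries of set a lay above the wild-type mean of that set, while in set b only the deep pair did. The genotype difference was 0.25 ± 0.15 (adjusted p = 0.787, limma), similar in set a (0.27 ± 0.23) and set b (0.24 ± 0.20). With the library kind as covariate it was 0.14 ± 0.12. Over the 8 deep libraries alone it was 0.29 ± 0.14 and over the 6 shallow ones alone -0.07 ± 0.12. Of 11 tested genes of semaphorin, plexin and neuropilin signalling, 0 passed and 5 were positive (median -0.02). Those with the smallest unadjusted p were Gipc1 (0.32 ± 0.18), an adaptor that binds the neuropilin tail, the plexin Plxna1 (-0.62 ± 0.40) and the semaphorin Sema7a (-0.97 ± 0.85, 0 to 5 reads per library).

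Fgl2 had the largest positive difference with both sets after Il10. It was at 4.55, 4.90 and 5.13 log2 CPM in Il1rn-/- libraries of set a and 4.30, 4.76 and 3.57 in wild-type ones. Set b had 4.11, 4.34, 4.60 and 5.25 in Il1rn-/- libraries and 4.14, 4.44, 3.81 and 4.84 in wild-type ones. Over both sets 6 of 7 Il1rn-/- values exceeded the mean of wild type, with overlap in each set. The difference was 0.43 ± 0.23 (adjusted p = 0.787, limma), 0.65 ± 0.35 in set a, 0.27 ± 0.31 in set b, where the sets' effects differed by -0.38 ± 0.47, which did not pass (adjusted p = 0.845, limma). With the library kind as covariate the difference with both sets was 0.36 ± 0.23. It was 0.67 ± 0.29 over the deep libraries alone and -0.08 ± 0.31 over the shallow ones alone. Of 4 Fc receptor genes listed beside Fgl2, Fcgr2b (0 to 6 reads) and Fcgr1 (0 to 3 reads) fell below the filter. Fcgr3 and Fcgr4 were not in the table, so reception within these cells was not tested.

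Lgals1 pointed the other way. It had 5.87, 6.83 and 6.73 log2 CPM in Il1rn-/- libraries of set a and 7.43, 6.08 and 6.04 in wild-type ones. Its set b values were 6.40, 7.20, 7.04 and 6.12 in Il1rn-/- libraries and 7.37, 7.05, 7.07 and 7.31 in wild-type ones. All 4 Il1rn-/- libraries of set b lay below the wild-type mean of that set, 2 of them by little. The difference was -0.31 ± 0.23 (adjusted p = 0.812, limma), -0.04 ± 0.35 in set a, -0.51 ± 0.30 in set b, with a difference between sets of -0.47 ± 0.46 that did not pass (adjusted p = 0.798, limma). Over the 8 deep libraries alone the genotypes averaged 6.52 in Il1rn-/- and 6.52 in wild type. In the shallow libraries the averages were 6.80 in Il1rn-/- (n = 2) and 7.20 in wild type (n = 4).

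Of 14 tested galectin and glycan genes, 0 passed between genotypes, 9 were positive and 5 negative (median 0.05). The smallest unadjusted p values were those of Ptprc (0.45 ± 0.25), the galectin Lgals8 (0.33 ± 0.20) and Spn (-0.26 ± 0.16). Ptprc and Spn encode the galectin-1 ligands CD45 and CD43. Under the library kind as covariate Ptprc was at 0.13, Lgals8 at 0.06 and Spn at -0.08. Between the sets 7 of the 14 passed by limma, where 19.5% of all tested genes did. Higher in set b were Lgals3bp (1.38 ± 0.29), Lgals9 (0.70 ± 0.18) and Spn (0.49 ± 0.16), and lower were Lgals4 (-3.71 ± 0.79), Gcnt1 (-1.11 ± 0.34), Ptprc (-0.77 ± 0.25) and Lgals8 (-0.69 ± 0.20). Set b holds all 6 shallow libraries, and with the library kind added as covariate only 12 of all tested genes passed between the sets.

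**Figure D3:**
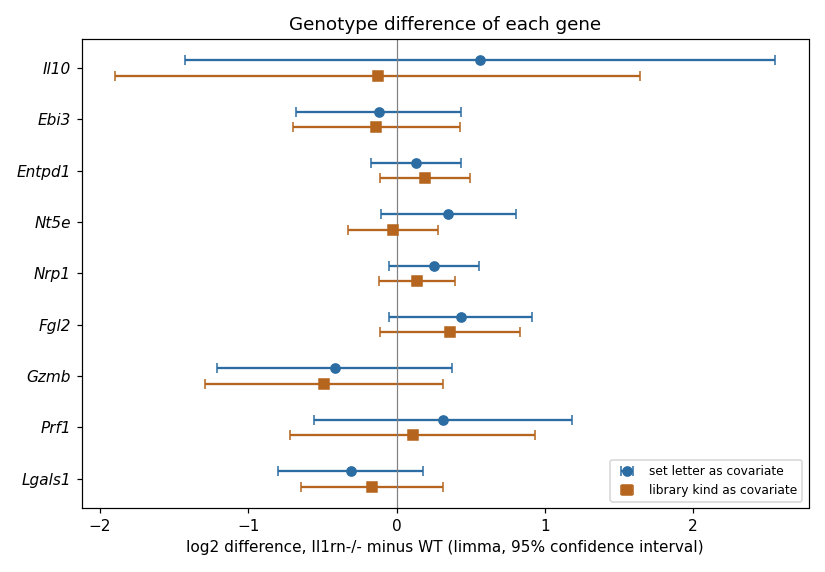
Log2 difference of each gene, Il1rn-/- minus wild type, from limma over all 14 libraries with 95% confidence intervals, with the set letter (circles) or the library kind (squares) as covariate. Every interval includes 0 under both covariates, and the Nt5e estimate is -0.03 with the library kind and 0.35 with the letter.

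The granule genes varied more between libraries than by genotype. Gzmb had 2.88, 3.97 and 4.90 log2 CPM in Il1rn-/- libraries of set a and 6.04, 5.17 and 3.65 in wild-type ones. Its set b values were 4.00, 4.70, 4.62 and 3.65 in Il1rn-/- libraries and 3.83, 4.29, 3.55 and 5.11 in wild-type ones. All 3 Il1rn-/- libraries of set a were below the wild-type mean of that set, yet wild-type 3-a lay among them. The difference was -0.42 ± 0.38 with both sets (adjusted p = 0.841, limma), -1.03 ± 0.55 in set a, 0.04 ± 0.48 in set b, with a difference between them of 1.08 ± 0.73 that did not pass (adjusted p = 0.713, limma). With the library kind as covariate the genotype difference with both sets was -0.49 ± 0.38. It was -0.95 ± 0.62 over the deep libraries alone and 0.15 ± 0.49 over the shallow ones alone. In set a the depth of the libraries was alike, and the higher wild-type values were those of the libraries with Y-linked transcripts.

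Prf1 had 3.85, 3.40 and 3.44 log2 CPM in Il1rn-/- libraries of set a and 4.32, 4.59 and 3.55 in wild-type ones. In set b it had 3.47, 3.76, 4.81 and 4.68 in Il1rn-/- libraries and 4.19, 4.07, 1.27 and 3.23 in wild-type ones. The lowest value, in wild-type 3-b, rests on 2 reads in the shallowest library. The difference was 0.31 ± 0.42 with both sets (adjusted p = 0.887, limma), -0.59 ± 0.58 in set a, 0.99 ± 0.50 in set b, where the opposite signs differed by 1.58 ± 0.77, which did not pass (adjusted p = 0.640, limma). Under the library kind as covariate the difference with both sets was 0.11, and without wild-type 3-b it was -0.09. The sign also turned with library kind and letter (-0.11) or library weights (-0.11) over all 14 libraries and in the deep libraries alone (-0.12).

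CD8 T cells and NK cells also carry granzyme B and perforin, so their markers are given beside these genes. Of 12 such markers 8 were in the table. Cd8a had 11 to 48 reads and Cd8b1 10 to 66 reads per library, while the NK marker Klrb1c was at 0 reads in 10 of 14 libraries. The markers summed to 21.5 to 47.1 CPM in Il1rn-/- and 16.6 to 55.4 CPM in wild type. They summed to 16.6 to 29.4 CPM in deep libraries and 36.0 to 55.4 CPM in shallow ones. Gzmb averaged 4.36 log2 CPM in deep and 4.25 in shallow libraries, and Prf1 averaged 4.08 in deep and 3.33 in shallow libraries. The sort for CD4+Foxp3eGFP+ cells should leave CD8 T, NK and B cells out, and the part of such cells in these values was not tested. In bulk samples, a change in the number of cells that carry a transcript and a change in its amount per cell cannot be told apart.

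Of 20 tested genes of granule content, loading and release, 0 passed between genotypes, 11 were positive and 9 negative (median 0.02). Tnfsf10, the death ligand TRAIL, differed by 0.31 ± 0.20 and Stx11, a syntaxin needed for granule release, by 0.25 ± 0.21. Gzmc, the granzyme that shares sequence with Gzmb, differed by -1.14 ± 0.90 from 0 to 15 reads per library. Signs differed between the sets for Stx11 (-0.10 in set a, 0.51 in set b) and Gzmc (0.74 in set a, -2.55 in set b). The library kind as covariate gave 0.33 for Tnfsf10, 0.09 for Stx11 and -1.42 for Gzmc. Gzma, the other main granzyme of killer cells, had at most 9 reads in any library, and the proteoglycan Srgn, which packs granules, was the list's most abundant by CPM at 7.73 to 9.59 log2 CPM. Between the sets 2 of the 20 passed, where 19.5% of all tested genes did: Ctsl was higher in set b (0.99 ± 0.25, limma adjusted p = 0.0124) and Unc13d, a priming factor of granule release, was lower (-0.37 ± 0.12, limma adjusted p = 0.0463).

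Il10 and Prf1 were highest in the same 4 libraries, those with Y-linked transcripts, a split examined after the values were seen. Il10 was at 3.73 and 3.30 (Il1rn-/- 3-b and 4-b) and 4.20 and 3.34 log2 CPM (wild-type 1-a and 2-a), against at most 2.56 in the other 10 libraries. Prf1 was at 4.81 and 4.68 in those Il1rn-/- and 4.32 and 4.59 in those wild-type libraries, against at most 4.19 in the other 10. Neither gene overlapped between these groups of libraries, a gap seen in 1.78% of tested genes, and the other 7 genes overlapped. The Il10 mean was 3.64 with Y-linked transcripts and 0.44 without them, and the Prf1 mean was 4.60 with them and 3.42 without. In the other deep libraries alone the means were 1.11 for Il10 and 3.56 for Prf1. Nt5e did not follow this split among deep libraries, at 6.65 with Y-linked transcripts and 6.68 without.

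In a limma model with genotype, library kind and Y-linked transcripts, 0 of the 9 genes passed for the Y-linked term, where 0.373% of tested genes did (46). Il10 differed by 2.60 ± 0.95 (limma adjusted p = 0.509, from 0.00705 to 0.798 over the alternatives). Prf1 differed by 1.11 ± 0.46 (limma adjusted p = 0.602, from 0.0417 to 0.900). Gzmb, which overlapped, differed by 0.93 ± 0.46 (limma adjusted p = 0.759, from 0.205 to 0.9998). With limma voom on recovered reads, which weights each value by its depth, 92 of 12329 tested genes passed for the Y-linked term. Among them were Il10 at 2.55 ± 0.48 (limma voom adjusted p = 0.00705) and Prf1 at 1.09 ± 0.25 (limma voom adjusted p = 0.0417). The split was examined after these values were seen, so these p-values are not those of a test planned beforehand. CD8 and NK markers summed to 16.6 to 27.3 CPM with Y-linked transcripts and 23.3 to 29.4 CPM in the other deep libraries. Markers of B cells, which can make interleukin-10 and which the sort should leave out, summed to 19.5 to 69.7 CPM with Y-linked transcripts and 46.6 to 61.0 CPM in the other deep libraries. The part of these cells in the 2 genes' values was not tested. Since 2 of these 4 libraries are the wild-type ones in set a and 2 the Il1rn-/- ones in set b, the opposite genotype signs of Il10 and Prf1 in the sets cannot be told apart from this split.

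**Figure D4:**
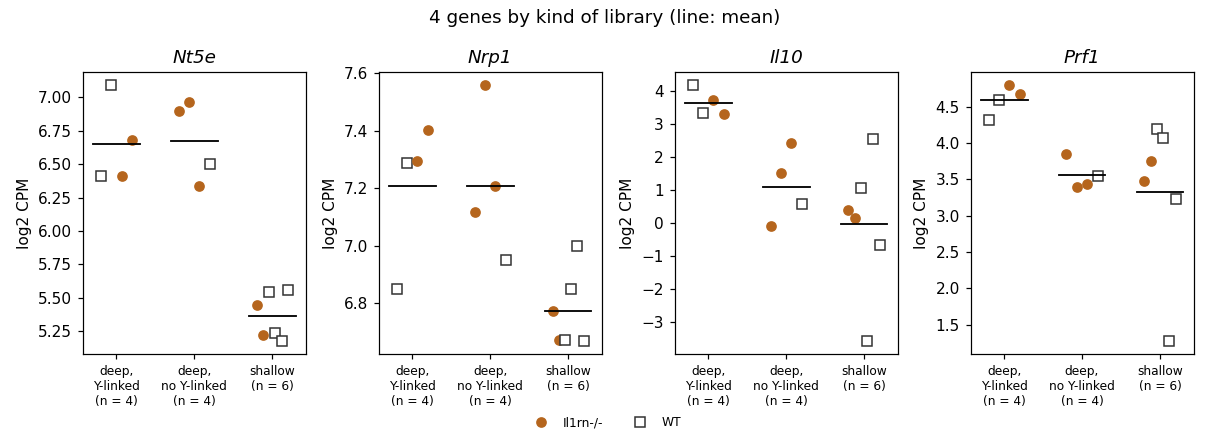
Log2 CPM of 4 genes in deep libraries with Y-linked transcripts (n = 4), deep libraries without them (n = 4) and shallow libraries (n = 6); circles are Il1rn-/-, squares wild type and lines means. Nt5e separates deep from shallow libraries at 6.66 and 5.36 on average, while Il10 and Prf1 are highest in the 4 libraries with Y-linked transcripts.

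Among themselves the 9 genes did not vary as 1 block. After centring within each kind of library, Pearson's r across the 14 libraries was 0.68 between Lgals1 and Ebi3, 0.67 between Entpd1 and Ebi3, 0.63 between Lgals1 and Gzmb and 0.60 between Lgals1 and Entpd1. It was 0.28 between the granule partners Prf1 and Gzmb, -0.26 between the ectoenzymes Nt5e and Entpd1, and -0.40 between Lgals1 and Nt5e, the lowest of all pairs. Il10 and Prf1 were highest in the same 4 libraries, yet their r was -0.13. In the shallow libraries the Il10 values rest on 0 to 5 reads. These are descriptions over libraries that share depth and scaling. By the same measure over 5138 candidate genes (mean log2 CPM of 4 or more), the closest to Il10 was Sgk1 (r = 0.90), to Gzmb Icos (0.91) and Rrm2 (0.87), to Prf1 Cct6a (0.90) and Tsc22d3 (0.87), and to Lgals1 Tpi1 (0.93) and Cfl1 (0.89). The closest to Ebi3 was Sh2d1a (0.87), to Entpd1 Slc9a3r1 (0.84), to Nt5e Skiv2l2 (0.85), to Nrp1 Trim8 (0.88) and to Fgl2 Lcmt1 (0.82). These are the top values of a search over 5138 genes in 14 libraries, and the level that unrelated genes reach was not computed. Genotype and the Y-linked split were not removed by the centring.

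Other molecules of suppression gave the same picture between genotypes. Of 23 tested genes, among them Ctla4, Tigit, Lag3 and Tgfb1, 0 passed, 12 were positive and 11 negative (median 0.01). The smallest unadjusted p values were those of the inhibitory receptor gene Pdcd1 (0.39 ± 0.20), its ligand Cd274 (0.31 ± 0.17) and the activation marker Cd83 (0.35 ± 0.19). All were positive with both sets together. In set a they were at 0.84, -0.05 and 0.16 in that order, and in set b at 0.05, 0.58 and 0.49. The library kind as covariate gave 0.45 for Pdcd1, 0.23 for Cd274 and 0.12 for Cd83. Between the sets 5 of the 23 passed, where 19.5% of all tested genes did and 12 genes in all did with the library kind added: Il2ra (0.66 ± 0.14), Gpr83 (0.68 ± 0.20) and Izumo1r (0.60 ± 0.16) were higher in set b, and Itgae (-0.85 ± 0.24) and Penk (-1.09 ± 0.36) were lower. In the IL-10 list Tyk2 (-0.94 ± 0.22) and Socs3 (-1.12 ± 0.38) were lower in set b by the same limma test.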

How the data were processed

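RNA was extracted from sorted cells with the Qiagen RNeasy Micro kit and sequenced from Smart-Seq2 libraries, and per the labels' protocols Cuffquant 2.2.1 quantified the transcripts. BWA, TopHat2 2.0.10, Cufflinks 2.2.1 and Cuffnorm are named per the submitters' processing notes; the build, annotation and strand handling were not given in the sources used here. The authors deposited log2 CPM for 14449 genes in 14 libraries, and whether the tools named above gave these values was not tested. Their lowest value, -3.58, stands for 0 reads, and whole reads were recovered for 100% of values within 0.001. Behind the deposited log2 values the library sizes carry scaling factors of 0.69 to 1.61, from a tool not stated. Reads are not independent molecules, so limits cover counting error only.

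The 12329 genes above 1 CPM in 3 or more libraries were tested with limma 3.58.1 in R 4.3.3, with a trend, two-sided and adjusted by Benjamini-Hochberg at 0.05. One fit had genotype and letter, another the 4 groups. Recovered reads entered limma voom, the alternative library sizes, depth, the Rn45s share and the Y-linked call. Library kinds were split at 50% Rn45s, and Y-linked transcripts were called from 20 reads. The fit with genotype and letter was tested on simulated counts, which held no difference between library kinds beyond library size and no Y-linked split. Their dispersion was a fixed value for all genes, not taken from these data. The simulation therefore cannot show what the fit detects at the spread seen here. Named were all members, up to 3 genes of each list with the smallest unadjusted p between genotypes, and for each member its closest genes by r. A gene that the rule names is not reported here. List genes that passed between sets, and a few others of a known role, were named after their values were seen. The members and lists were chosen with earlier results of these data known. Alternatives covered filter, prior count, scaling, variance model, covariates, subsets, a block by number and each library left out; total reads as library size and the Y-linked comparison were chosen after seeing the data. Lengths and loci came from GENCODE M21, promoters from RefSeq (GRCm38.p6). Other work used Python 3.11.15.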

Additional observations from a re-analysis of the deposited data

Results flagged for a closer look

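Perforin transcripts in 1 wild-type library stood apart. Prf1 was at 1.27 log2 CPM in wild-type 3-b, from 2 reads in the shallowest library (952021 reads), while the other 6 wild-type libraries had 3.23 to 4.59, so the gap to the nearest exceeds what Dixon's test allows at 95% in a group of that size. Among the 4 wild-type libraries of set b alone the gap was 0.673 of the range, under the critical 0.829. Of 36 groups of values tested this way 1 was flagged, and chance flags about 1 in 20. Without it the genotype difference of Prf1 with both sets was -0.09, against 0.31 with it.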

How the results depend on the processing

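Values were recomputed for all 9 genes between genotypes with both sets, 7 within each set, 6 for the difference between sets, 3 for the Y-linked term and Nt5e between the sets. Of these 852, 814 kept their direction and side of the threshold, 35 changed sign without passing, 1 lost a call (Nt5e between sets, above) and 2 gained one (Il10 and Prf1 under limma voom, above). Outside that count, 4 other genes passed between the sets with total reads, as given above. The sign changes with both sets were those of Il10 (-0.55 with library kind and letter, -0.13 with library kind, -0.17 with library weights, -0.17 with voom, -0.52 in deep libraries), Prf1 (-0.11 with kind and letter, -0.11 with weights, -0.12 in deep libraries), Nt5e (-0.026 with library kind, -0.031 with a Y-linked term added, -0.012 in deep and -0.044 in shallow libraries), Lgals1 (0.00136 in deep libraries) and, in shallow libraries, Nrp1 (-0.074), Fgl2 (-0.082) and Gzmb (0.15). In set a Nt5e was -0.00282 with each library centred on its median and -0.050 with total reads, and in set b Gzmb was -0.066 with weights, -0.075 with voom and -0.058 with ribosomal RNA left out. The cause was not tested. Leaving out 1 library at a time, the sign of Il10 turned without wild-type 2-b, of Ebi3 without Il1rn-/- 1-a or 1-b, of Prf1 without wild-type 3-b, of Lgals1 in set a without Il1rn-/- 1-a or wild-type 1-a, of Nt5e in set a without any of Il1rn-/- 1-a and 2-a and wild-type 1-a and 3-a, and of Gzmb in set b without any of Il1rn-/- 2-b and 3-b and wild-type 1-b and 3-b. These settings gave Il10 -0.18 to 1.03, Ebi3 -0.26 to 0.017 and Prf1 -0.089 to 0.48 with both sets, Nt5e -0.067 to 0.27 and Lgals1 -0.28 to 0.42 in set a, and Gzmb -0.17 to 0.35 in set b.

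Counts of called genes between genotypes, 0 with both sets, were 2 in deep and 13 in shallow libraries. Leaving out 1 library gave 0 to 1 in set a (1 without wild-type 3-a) and 0 to 230 in set b (230 without Il1rn-/- 2-b, 7 without Il1rn-/- 1-b, 3 without wild-type 1-b). Between the sets, 2408 became 12 with the library kind, 4091 with weights and 6121 with total reads, which moved the median of all genes, and 1355 (without wild-type 2-a) to 3376 with 1 library left out, and 1570 without wild-type 1-a. For Y-linked transcripts, 46 became 21 with the letter, 94 with weights, 92 with voom, 18 in deep libraries, 77 with total reads and 28 (without Il1rn-/- 4-b) to 58 with 1 library left out, and 30 without Il1rn-/- 3-a. With the replicate number within the letter as a replicate block, 0 genes passed between genotypes in any comparison, and Fgl2 was 0.43 ± 0.22 (adjusted p = 0.861, limma). No pairing by number was seen: of 7 pairs 0 had a correlation of deviations over 0.1 (-0.15 to 0.00052), and 0 of 7 Il1rn-/- libraries correlated best with their own number. This check cannot decide whether libraries were paired. Deviations from the mean of 3 or 4 libraries depend on each other. In set b those of Il1rn-/- libraries also hold the split into deep and shallow, while the wild-type ones are all shallow. Low reads limit Il10 and Prf1 in shallow libraries.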
